A study of Mus musculus with 10 samples.

Results

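The genes of cholesterol synthesis described here are *Hmgcs1*, *Mvd*, *Idi1*, *Fdps*, *Sqle*, *Lss* and *Cyp51*, which encode enzymes of the pathway, and *Insig1*, which encodes its sterol-controlled brake. They are 8 of the 18193 genes that the array annotation named with 1 symbol, and 19 of 45037 probe sets carried one of these symbols and no other. A probe set is a group of short probes for 1 transcript, and its value here is a log2 value after robust multi-array analysis (RMA). RNA was measured on 10 Affymetrix mouse genome arrays of *Max*-null ESCs, a line of male 129SV mouse embryonic stem cells in which both endogenous copies of *Max* are disrupted. A *Max* cDNA placed in the *ROSA26* locus under a tetracycline-off switch supplies MAX until doxycycline (Dox) turns it off. Every array, untreated ones included, thus came from cells without endogenous *Max*. In medium with leukaemia inhibitory factor (LIF) and serum, a first set of arrays comprised untreated cells and cells after 1, 2, 3 and 4 d of Dox, and a second set comprised untreated cells and cells after 6 and 8 d. These sets follow the labels, which name each untreated array as the reference for those days, and no label says that the arrays of a set were prepared together. The third set, in 2i+LIF, comprised cells after 6 d of Dox with 2i and cells after 6 d of 2i without Dox, called untreated here; 2i+LIF is a medium with inhibitors of the kinases MEK and GSK3β. Each Dox time is 1 array, so a fold at a single time has no test. No source ties the arrays to separate cultures, so each p-value rests on the scatter of these arrays around the fit, which may be technical. No p-value thus measures variation between cultures, and the scatter also holds any change over time that the fit does not follow. Differences between groups of bulk RNA cannot tell fewer cells of a kind from less RNA per cell.

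In the mevalonate pathway, acetyl-CoA is built up through 3-hydroxy-3-methylglutaryl-CoA and mevalonate into isoprenoid units, which are joined to farnesyl diphosphate. Farnesyl diphosphate is the branch point between sterols and other products such as prenylated proteins, ubiquinone and dolichol. Its condensation to squalene commits it to sterols, and squalene is then oxidised, closed to lanosterol and trimmed to cholesterol. The genes of the pathway are classical targets of SREBP2, a transcription factor that is held in the endoplasmic reticulum by SCAP and the INSIG proteins when sterols are plentiful and is released to the nucleus when they are scarce. *Insig1* is itself such a target, which closes a feedback loop.

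The 9 embryonic stem cell markers looked at, among them *Pou5f1* and *Nanog*, lay between 9.55 and 14.2 on every array. Of these 9, 2 rose with days of Dox in LIF+serum and 1 fell (limma slopes). Among all probe sets 4.77% rose and 4.17% fell, shares that also apply to the other markers below. *Klf4* rose by 0.24 per day (adjusted p = 0.0069, 3.21-fold at 6 d) and *Nanog* by 0.11 (adjusted p = 0.0433). *Utf1* changed by −0.14 per day (adjusted p = 0.0295, 0.548-fold at 6 d). The summed level, on the log2 scale, was 7.75 to 9.37 for 7 fibroblast markers, 7.23 to 8.43 for 7 primitive endoderm markers and 8.41 to 10.9 for 6 trophectoderm markers, and each of these 3 sums was highest at Dox 8 d in LIF+serum. With days of Dox, 1 fibroblast marker rose, *Pdgfrb* (0.36 per day, adjusted p = 0.00763, 6.70-fold at 8 d), as did 1 trophectoderm marker, *Krt7* (0.38 per day, adjusted p = 0.0133), and no primitive endoderm marker. The fibroblast collagens *Col1a1*, *Col1a2* and *Col3a1* were 1.48-fold, 3.28-fold and 3.33-fold at 8 d, with slopes that did not pass (adjusted p from 0.263 to 0.369). *Krt8* read 10.43 on the untreated array in 2i+LIF. The single probe set of *Max* read 5.57 on the first untreated array and 5.53, 5.60, 5.07 and 5.20 at 1, 2, 3 and 4 d of Dox. It read 5.74, 6.20 and 6.19 on the second untreated array and at 6 and 8 d, and 5.54 with Dox and 5.74 without in 2i+LIF. Since no source says whether this probe set matches the cDNA or only the disrupted gene, it checks no label. Array medians were 5.26 to 5.33 in LIF+serum and 5.14 and 5.16 in 2i+LIF, and the sources used here do not say which arrays shared a normalization. The 3′ probe set of beta-actin exceeded the 5′ one, a gap that widens as RNA shortens, by 0.41 to 0.56 (log2) in the first set, by 0.88 on the second untreated array, by 1.46 and 1.22 at Dox 6 and 8 d and by 0.76 and 0.78 in 2i+LIF. The same gap for *Gapdh* lay between −0.12 and 0.12 on all 10 arrays. It was 0.12 on the second untreated array and 0.09 and 0.05 at Dox 6 and 8 d. The part of these differences in the results below was not tested.

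After 1 d of Dox in LIF+serum, *Idi1*, *Hmgcs1* and *Insig1* stood above the untreated array of their set, while the other 5 members lay between 0.883-fold and 1.09-fold of it. Among the 5 arrays of that set, 6 of the 8 genes (15 of 19 member probe sets) had their highest value at 1 d, as did 13.82% of all genes. No share was counted over all probe sets. For *Fdps*, *Mvd* and *Cyp51* that highest value was only 1.01-fold, 1.03-fold and 1.09-fold the untreated one. *Idi1* encodes isopentenyl-diphosphate isomerase, which interconverts the pair of isoprenoid building blocks of the pathway. Its probe set 1451122_at read 8.03 on the untreated array and 9.34, 9.12, 8.48 and 8.72 at 1, 2, 3 and 4 d, so all 4 Dox arrays lay above it and the earliest lay highest. The fold at 1 d was 2.48, and 2.23 for the second *Idi1* probe set, 1423804_a_at; these were the only member probe sets to reach 2-fold upwards at 1 d, against 3.08% of all probe sets. At 2 d 1451122_at was still 2.14-fold higher (4.23% of all probe sets reached 2-fold upwards). *Hmgcs1* encodes the synthase that makes 3-hydroxy-3-methylglutaryl-CoA. Its brightest probe set, 1433443_a_at, read 9.97 on the untreated array and 10.88, 10.50, 10.65 and 10.69 at 1, 2, 3 and 4 d, a fold of 1.88 at 1 d and of 1.44 to 1.65 on the later days. *Insig1* read 8.02 on the untreated array and 8.72, 8.05, 8.52 and 8.30 on the same days, 1.63-fold higher at 1 d and 1.02-fold at 2 d.

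The untreated arrays limit how these early folds can be read. The second untreated array was itself 1.67-fold the first for *Idi1*, 1.33-fold for *Hmgcs1* and 2.12-fold for *Insig1*. Against it, Dox 1 d was 1.48-fold for *Idi1*, 1.41-fold for *Hmgcs1* and 0.768-fold for *Insig1*. The direction at 1 d thus held for *Idi1* and for the brightest *Hmgcs1* probe set under both references, and turned for *Insig1* and for 2 further *Hmgcs1* probe sets (0.966 and 0.921, against 1.73 and 1.69 with the untreated array of their own set).

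**Figure D1:**
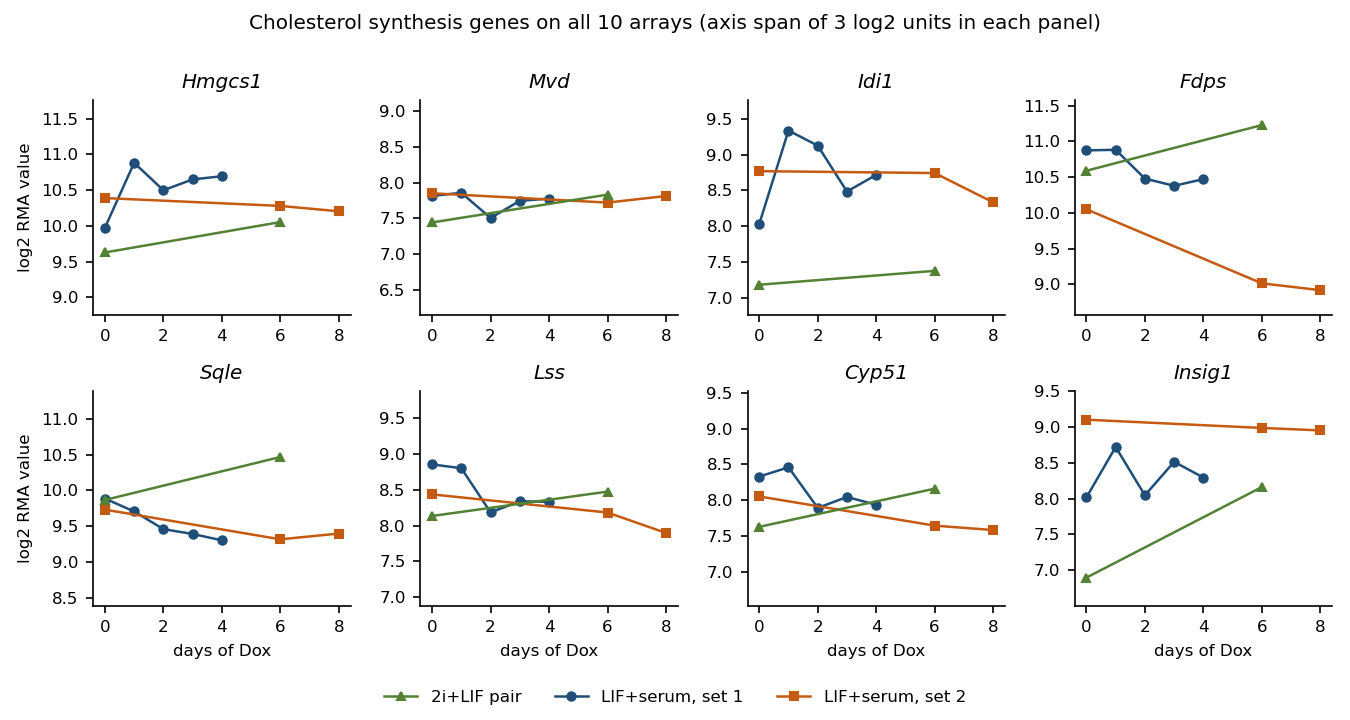
Log2 RMA value (vertical axis) against days of Dox (horizontal axis) for the brightest probe set of each gene, 1 array per point, with lines joining the arrays of 1 set. *Idi1* peaks at 9.34 at 1 d, *Fdps* reaches 8.92 at 8 d in LIF+serum, and every green pair (2i+LIF) runs upwards, while both Dox arrays of the second set in LIF+serum (orange) lie below their untreated array.

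The sequences around the start sites are shown for these 3 genes and for *Cyp51*, whose later fall is described below, because SREBP2 and MAX act through short DNA motifs. Promoter entries (250 bases before to 50 bases after the start, RefSeq, build GRCm38.p6) were matched for 6 of the 8 genes. Capitals mark matches, on either strand, to the sterol regulatory element TCACNCCAC of SREBPs, to the E-box CACGTG bound by MAX dimers and to the CCAAT box. The windows are chr13:119690101-119690400 for *Hmgcs1* (plus strand), chr13:8885356-8885655 for *Idi1* (plus), chr5:28071162-28071461 for *Insig1* (plus) and chr5:4104648-4104947 for *Cyp51* (minus), each printed 5′ to 3′ on the strand of its gene.
Hmgcs1: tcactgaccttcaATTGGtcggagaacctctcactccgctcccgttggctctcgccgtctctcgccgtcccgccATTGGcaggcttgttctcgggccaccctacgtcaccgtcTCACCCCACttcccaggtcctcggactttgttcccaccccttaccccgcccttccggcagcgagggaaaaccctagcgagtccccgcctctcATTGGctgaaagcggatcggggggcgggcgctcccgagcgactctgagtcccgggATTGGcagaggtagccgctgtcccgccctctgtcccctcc
Idi1: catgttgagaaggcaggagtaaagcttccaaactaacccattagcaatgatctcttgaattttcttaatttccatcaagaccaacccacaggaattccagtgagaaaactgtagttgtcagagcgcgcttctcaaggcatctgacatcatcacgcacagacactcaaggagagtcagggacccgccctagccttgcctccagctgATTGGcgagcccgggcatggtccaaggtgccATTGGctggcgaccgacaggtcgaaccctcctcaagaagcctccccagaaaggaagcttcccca
Insig1: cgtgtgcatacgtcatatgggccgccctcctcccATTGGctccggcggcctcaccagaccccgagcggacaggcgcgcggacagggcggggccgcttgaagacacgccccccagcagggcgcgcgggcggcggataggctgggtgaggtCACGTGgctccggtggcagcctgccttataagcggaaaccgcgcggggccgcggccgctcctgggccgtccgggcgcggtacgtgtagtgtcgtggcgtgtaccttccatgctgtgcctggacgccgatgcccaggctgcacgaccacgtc
Cyp51: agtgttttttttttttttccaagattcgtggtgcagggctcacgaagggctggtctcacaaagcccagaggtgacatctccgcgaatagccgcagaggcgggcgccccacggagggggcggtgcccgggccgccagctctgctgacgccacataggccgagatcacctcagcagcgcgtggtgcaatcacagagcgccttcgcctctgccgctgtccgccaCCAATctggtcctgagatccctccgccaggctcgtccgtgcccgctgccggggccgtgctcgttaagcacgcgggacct
The sterol regulatory element matched in 1 of the 6 member windows, that of *Hmgcs1*, at −137 from the start, and in 1.24% of all 32851 windows. The E-box matched in 1 of 6, that of *Insig1*, at −101, and in 7.15% of all windows. A CCAAT box was found in all 6 members and in 37.4% of all windows, and *Hmgcs1* held 4 of them. The GC box GGGCGG, read on both strands and not capitalised, was in all 6 and in 35.7% of all. The letters searched are strict, and neither a match nor its absence says whether a factor binds there.

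Over the whole course in LIF+serum, 2 of 19 member probe sets fell with days of Dox and 0 rose, 1 of *Fdps* and 1 of *Cyp51*. The fit was a slope in log2 units per day over 8 arrays with the array set as a covariate (limma, adjusted p under 0.05 over all 45037 probe sets). In the same fit 4.17% of all probe sets fell and 4.77% rose. At an unadjusted p under 0.05, 6 member probe sets had a falling slope and 0 a rising one, against 12.4% and 11.7% of all probe sets. *Fdps* encodes farnesyl diphosphate synthase, the enzyme at the branch point. Its probe set 1423418_at read 10.87 on the first untreated array and 10.88, 10.48, 10.38 and 10.47 at 1, 2, 3 and 4 d. In the second set it read 10.05 on the untreated array, 9.01 at 6 d and 8.92 at 8 d, lower than on any other array. With days of Dox it changed by −0.14 log2 units a day (limma, standard error 0.03, adjusted p = 0.0125). The folds were 0.488 at 6 d and 0.456 at 8 d, and 0.276 and 0.258 against the first untreated array. The second *Fdps* probe set, 1438150_at, lay between 2.26 and 3.79, below the lower quartile of each array, and its slope did not pass (adjusted p = 0.505).

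*Cyp51* encodes lanosterol 14α-demethylase, the first enzyme after ring closure. Probe set 1422533_at read 7.72 on the first untreated array and 7.95, 7.43, 7.61 and 7.53 at 1, 2, 3 and 4 d, and 7.81, 6.72 and 6.14 on the second untreated array and at 6 and 8 d. Its slope was −0.17 per day (limma, standard error 0.03, adjusted p = 0.0144), and its folds at 6 and 8 d were 0.471 and 0.315. This probe set and *Fdps* 1423418_at were the 2 of 19 member probe sets to reach 2-fold downwards at 6 and at 8 d, against 4.27% and 4.51% of all probe sets. The brightest *Cyp51* probe set, 1450646_at, changed less, with 8.05 on the second untreated array and 7.64 and 7.58 at 6 and 8 d. Its slope of −0.07 did not pass (standard error 0.03, adjusted p = 0.150).

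Neither call was made in the first array set alone. Within the first set alone the slopes were −0.13 for *Fdps* (adjusted p = 0.236) and −0.07 for 1422533_at (adjusted p = 0.577), and within the second alone −0.15 (adjusted p = 0.0512) and −0.20 (adjusted p = 0.0142). Without the second untreated array no probe set of the whole table passed in limma (3165 had a higher and 2974 a lower slope at an unadjusted p under 0.05), and without the 8 d array 1422533_at had an adjusted p of 0.0531. The arrays at 6 and 8 d are also those with the widest beta-actin gap. Their *Gapdh* gaps (0.09 and 0.05) were smaller than that of the untreated array of their set (0.12).

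The other members had slopes that did not pass. *Sqle*, the squalene epoxidase that catalyses the first oxygen-requiring step, read 9.89 on the first untreated array and 9.71, 9.46, 9.39 and 9.30 at 1, 2, 3 and 4 d, and 9.73, 9.32 and 9.40 on the second untreated array and at 6 and 8 d. All 6 Dox arrays lay below both untreated arrays, with a slope of −0.07 (standard error 0.03, adjusted p = 0.155). *Lss*, the cyclase that makes lanosterol, read 8.86 and then 8.80, 8.19, 8.34 and 8.33 in the first set and 8.44, 8.18 and 7.90 in the second on probe set 1420013_s_at (slope −0.08, adjusted p = 0.154). *Mvd*, the decarboxylase that makes isopentenyl diphosphate, kept between 7.50 and 7.86 on all 8 arrays (slope −0.01, adjusted p = 0.854). The slopes were 0.01 for *Hmgcs1*, −0.02 for *Idi1* and −0.01 for *Insig1* (adjusted p from 0.866 to 0.939).

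**Figure D2:**
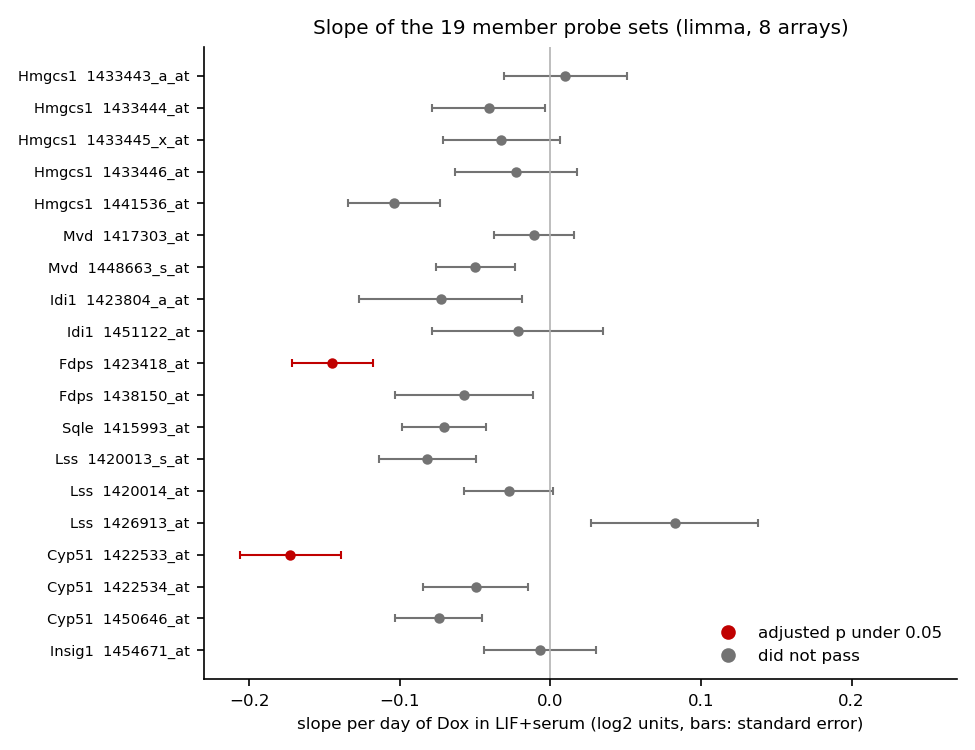
Slope per day of Dox in LIF+serum (horizontal axis, log2 units, bars show the standard error) for the 19 probe sets (rows), from limma over 8 arrays. *Fdps* 1423418_at at −0.14 and *Cyp51* 1422533_at at −0.17 passed, and *Lss* 1426913_at at 0.08 lies opposite to the other *Lss* probe sets.

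A comparison of the 6 Dox arrays with the 2 untreated arrays, with the array set as a covariate, called 0 of 19 member probe sets in either direction (limma, adjusted p under 0.05). It called 1.88% of all probe sets higher and 1.11% lower, and at an unadjusted p under 0.05 there were 5 member probe sets lower and 0 higher, against 12% and 11% of all probe sets. *Fdps* 1423418_at had a difference of −0.67 on the log2 scale (standard error 0.21), with an adjusted p of 0.0990. The corresponding values were 0.32 for *Hmgcs1* (adjusted p = 0.386) and 0.38 for *Idi1* (adjusted p = 0.489), whose largest values came at 1 d.

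Probe sets of 1 gene did not always move together. The 4 brighter *Hmgcs1* probe sets were 1.69-fold to 1.88-fold the untreated value at 1 d, and the faintest one, 1441536_at, was 1.15-fold. For *Lss*, 1426913_at ran against the other probe sets: it read 5.74, 6.15, 6.29, 6.85 and 7.11 on the untreated array and at 1, 2, 3 and 4 d, and reached 2.16-fold at 3 d (5.41% of all probe sets reached 2-fold upwards) and 2.59-fold at 4 d (6.92%). In the other directions, 0 member probe sets reached 2-fold downwards at 1, 3 and 4 d (0.437%, 2.32% and 3.16% of all probe sets), upwards at 6 and 8 d (5.77% and 5.49%) or downwards in 2i+LIF (1.8%), and the only one downwards at 2 d was the faint *Fdps* 1438150_at (1.04%). The slope of *Lss* 1426913_at passed within the first set alone (0.34 per day, adjusted p = 0.0189) but not over both sets (0.08, adjusted p = 0.414), and its value on the second untreated array, 7.29, was 2.94-fold that on the first. An ending of _s_at, as on the brightest *Lss* probe set, marks probes that can be shared by more than 1 transcript.

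**Figure D3:**
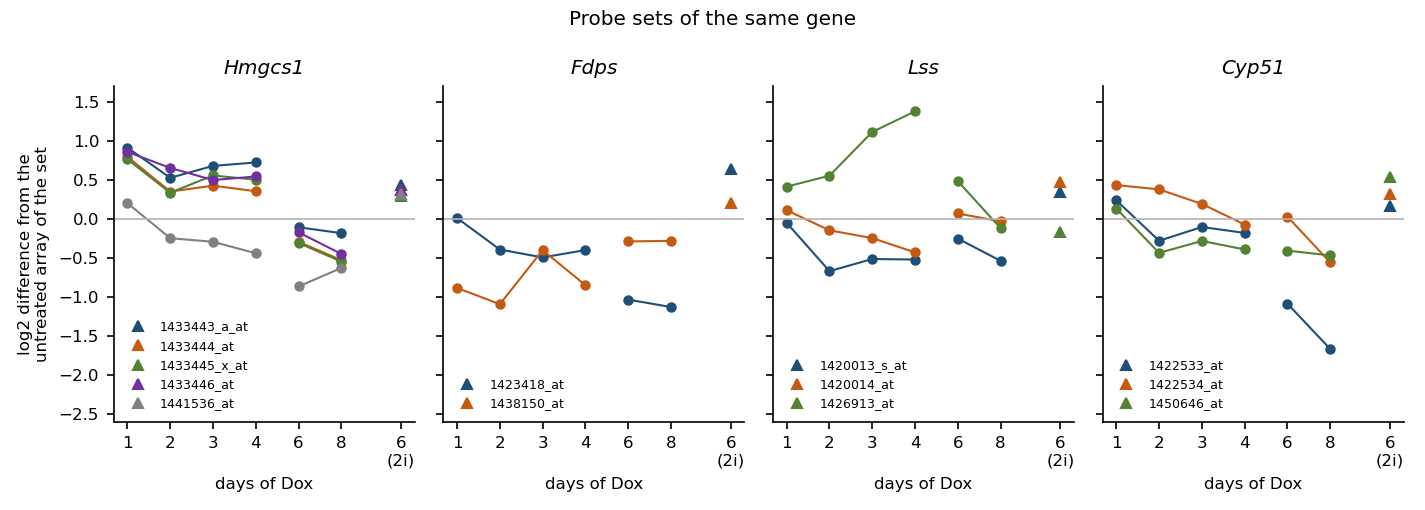
Log2 difference from the set's own untreated array (vertical axis) at each time of Dox (horizontal axis) for every probe set of 4 genes; circles are arrays in LIF+serum and triangles Dox 6 d in 2i+LIF. The first 4 *Hmgcs1* probe sets run together, whereas *Lss* 1426913_at reaches 2.59-fold at 4 d as the other *Lss* probe sets lie below 0.

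In 2i+LIF all 8 genes had a higher value after 6 d of Dox than on the untreated array, with folds from 1.14 to 2.41 and a median of 1.39. Of all genes, 52.82% were higher. In LIF+serum at 6 d all 8 genes were lower than the untreated array of their set, with folds from 0.488 to 0.982 and a median of 0.875, as were 55.91% of all genes. At 8 d all 8 were lower again (median 0.766, against 0.974 over all genes), as were 19 of 19 probe sets and 53.15% of all genes. Both directions together, higher in 2i+LIF and lower in LIF+serum at 6 d, were seen in 8 of 8 members and in 27.65% of all genes. The serum count depends on the untreated array: with the first untreated array as reference, 5 of 8 members were lower at 6 d and 5 at 8 d, since *Insig1* (1.96), *Idi1* (1.64) and *Hmgcs1* (1.24) then lay above 1 at 6 d. It was 6 after a further quantile normalization, where *Hmgcs1* and *Idi1* differed from untreated by 0.0039 and 0.0142 on the log2 scale, and 7 after averaging the probe sets of a gene, where *Lss* differed by 0.10.

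*Insig1* had the largest fold of the members in 2i+LIF. It read 8.16 with Dox and 6.90 on the untreated array in 2i+LIF (2.41-fold), and 8.99 at Dox 6 d and 9.10 on the untreated array of the second set in LIF+serum (0.923-fold). It was the only member probe set to reach 2-fold upwards in 2i+LIF, against 1.22% of all probe sets. *Fdps* read 11.23 with Dox and 10.59 untreated in 2i+LIF (1.56-fold), and 9.01 and 10.05 in LIF+serum (0.488-fold). Its 2i+LIF array with Dox was the highest of all 10 and its LIF+serum arrays with 6 and 8 d of Dox the lowest. *Sqle* read 10.47 with Dox and 9.87 untreated in 2i+LIF (1.52-fold), and 9.32 and 9.73 in LIF+serum (0.750-fold). *Cyp51* (1450646_at) was 1.45-fold in 2i+LIF and 0.753-fold in LIF+serum. The folds in 2i+LIF were 1.34 for *Hmgcs1*, 1.31 for *Mvd*, 1.27 for *Lss* and 1.14 for *Idi1*, and those in LIF+serum were 0.927, 0.914, 0.839 and 0.982 for the same genes. Of the 19 probe sets, 18 were higher in 2i+LIF, all but *Lss* 1426913_at (0.887-fold), and 16 were lower in LIF+serum, the others being *Lss* 1426913_at (1.40-fold), *Lss* 1420014_at (1.05-fold) and *Cyp51* 1422534_at (1.02-fold).

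The difference between the slopes in both media did not pass for any member. In the fit over all 10 arrays 0 of 45037 probe sets passed in either direction (limma, adjusted p under 0.05; 2242 were higher and 2399 lower in 2i+LIF at an unadjusted p under 0.05). With a trended and robust variance, limma called 9 higher and 16 lower, and no member. Of the 19 member probe sets, 8 had a slope higher in 2i+LIF at an unadjusted p under 0.05 and 0 a lower one, against 4.98% and 5.33% of all probe sets. The differences, as the slope in 2i+LIF minus that in LIF+serum, were 0.25 per day for *Fdps* (standard error 0.05, adjusted p = 0.138), 0.22 for *Insig1* (standard error 0.07, adjusted p = 0.310), 0.17 for *Sqle* (standard error 0.05, adjusted p = 0.289) and 0.16 for *Cyp51* (standard error 0.05, adjusted p = 0.328). They were 0.05 to 0.14 for *Idi1*, *Hmgcs1*, *Mvd* and *Lss* (adjusted p from 0.468 to 0.921). The pair in 2i+LIF has no replicate, so the fit assumes that it varies like the arrays in LIF+serum. It is also an array set of its own, so a difference between media cannot be told apart from a difference between array sets.

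**Figure D4:**
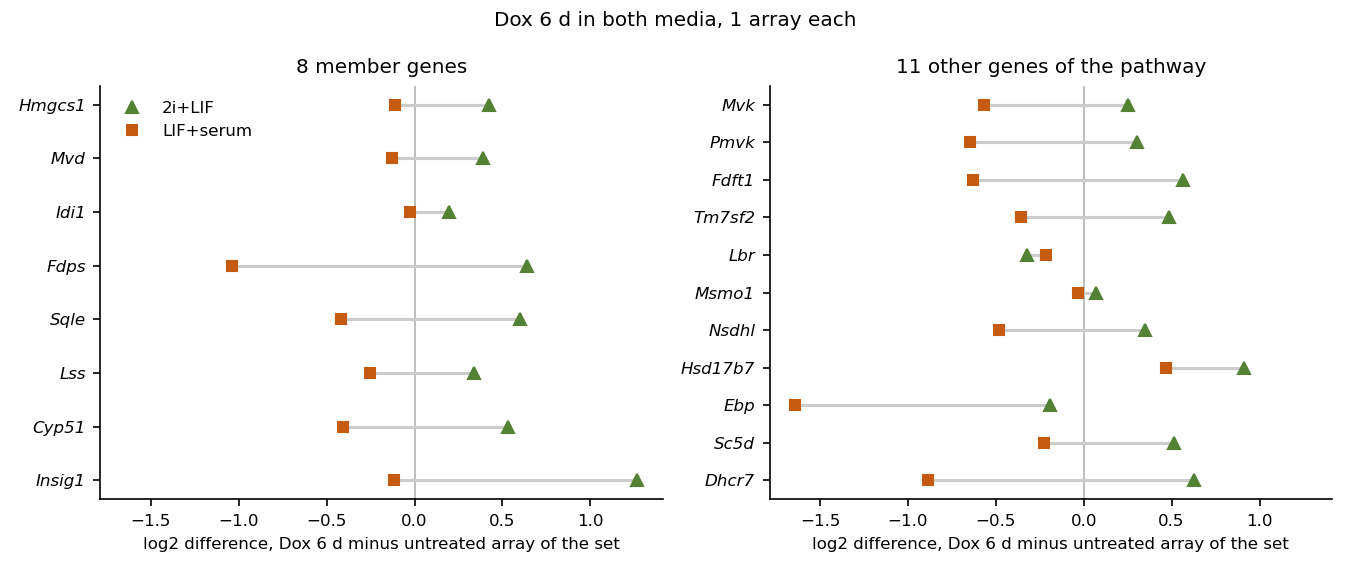
Log2 difference between Dox 6 d and the untreated array of the same set (horizontal axis) in 2i+LIF (triangles) and in LIF+serum (squares) for the 8 genes described here (left) and 11 further genes of cholesterol synthesis (right), 1 pair of arrays per medium. All 8 genes on the left lie above 0 in 2i+LIF and below 0 in LIF+serum, and 8 of the 11 on the right do so.

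The untreated arrays themselves differed between media for some members. On the untreated array in 2i+LIF, *Insig1* read 6.90, below the 8.02 and 9.10 of the untreated arrays in LIF+serum, and was 0.315-fold their mean. *Idi1* read 7.18, below 8.03 and 8.77 (0.430-fold). *Hmgcs1*, *Cyp51*, *Lss* and *Mvd* were 0.681-fold, 0.676-fold, 0.701-fold and 0.763-fold the mean of both untreated arrays in LIF+serum and lay below each of them, while *Sqle* (1.04-fold) and *Fdps* (1.09-fold) lay close to it. The gap between both untreated arrays in LIF+serum was 1.09 on the log2 scale for *Insig1* and −0.82 for *Fdps* (second minus first). The difference between media was larger than this gap, gene by gene, for 6 of 8 members, *Sqle* and *Fdps* being the others. How often this holds among all genes was not counted, so it cannot be called particular to the members. *Insig1* and *Idi1* differed by −1.67 and −1.22 between media, and *Hmgcs1*, *Cyp51*, *Lss* and *Mvd* by −0.39 to −0.56. With 1 untreated array in 2i+LIF there was no test. The 2i+LIF arrays are also an array set of their own, so medium and array set cannot be told apart here.

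Other genes of the pathway were counted from lists chosen with knowledge of earlier results of these arrays, each gene read from its brightest probe set. For the counts of these and the further lists below, 4.77% of all probe sets rose with days of Dox and 4.17% fell. Of 11 other cholesterol synthesis genes analysed, 1 fell and 0 rose with days of Dox in LIF+serum, and 6 had a falling slope at an unadjusted p under 0.05 (12.4% of all probe sets did). The median slope was −0.07 per day, against −0.01 over all genes. *Ebp*, the sterol isomerase, fell by 0.21 per day (limma, adjusted p = 0.00734, standard error 0.03). It read 9.30 on the first untreated array and 9.02, 8.76, 8.55 and 8.27 at 1, 2, 3 and 4 d, and 9.09, 7.45 and 7.72 on the second untreated array and at 6 and 8 d, lower at every later day of the first set. The slopes of *Pmvk* (−0.12, adjusted p = 0.0550), *Dhcr7* (−0.08, adjusted p = 0.198) and *Mvk* (−0.08, adjusted p = 0.112), which encode phosphomevalonate kinase, the last reductase of the pathway and mevalonate kinase, did not pass. At 6 d, 10 of the 11 were lower in LIF+serum and 9 higher in 2i+LIF, 8 both. Of all genes, 55.91% were lower in LIF+serum, 52.82% higher in 2i+LIF and 27.65% both. The exceptions among the 11, named after their values were seen, were *Hsd17b7*, higher in both media, and *Ebp* and *Lbr*, lower in both. These serum directions also depend on the untreated array. Against the first one, *Tm7sf2* (7.48 against 7.46), *Msmo1* (9.21 against 9.11) and *Lbr* (10.81 against 10.61) were higher at 6 d.

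Among 9 genes of SREBP control and cholesterol uptake, *Insig2*, which encodes the second INSIG protein, rose by 0.15 per day (limma, adjusted p = 0.0145, standard error 0.03), and no other passed. Its values were 7.61 on the first untreated array and 8.00, 7.70, 8.19 and 8.32 at 1, 2, 3 and 4 d, and 7.62, 8.39 and 8.79 on the second untreated array and at 6 and 8 d. All 6 Dox arrays of *Insig2* lay above both untreated arrays, and in 2i+LIF it read 8.38 with Dox and 8.01 without. The next steepest slopes, those of *Stard4* (0.08, adjusted p = 0.258), a sterol carrier, *Scap* (0.07, adjusted p = 0.559) and *Npc2* (−0.06, adjusted p = 0.273), a lysosomal sterol-binding protein, did not pass.

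Of 5 genes of LXR and cholesterol efflux or storage, 2 rose and 0 fell, against 4.77% and 4.17% of all probe sets. *Abca1*, the transporter that exports cholesterol, rose by 0.33 per day (limma, adjusted p = 0.0322, standard error 0.08). It read 8.43 on the first untreated array and 9.97, 9.55, 10.75 and 10.75 at 1, 2, 3 and 4 d, and 8.29, 10.92 and 10.01 on the second untreated array and at 6 and 8 d. Every Dox array of *Abca1* stood above both untreated arrays by 2-fold or more, and it also passed in the comparison of Dox with untreated (a difference of 1.99, adjusted p = 0.0409). In 2i+LIF *Abca1* read 9.98 with Dox and 8.92 without. *Mylip*, whose product targets the LDL receptor for degradation, rose by 0.20 per day (adjusted p = 0.00424), whereas its 2i+LIF values were 8.13 with Dox and 8.81 without; the difference between media was −0.32 per day (adjusted p = 0.0828) and did not pass. The slopes of *Apoe* (−0.15, adjusted p = 0.175) and *Abcg1* (0.07, adjusted p = 0.368) did not pass.

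Fatty acid synthesis, which SREBP1 mainly drives, showed no common direction. Of 12 genes, 1 rose and 1 fell: *Acss2*, acetyl-CoA synthetase, had a rising slope of 0.18 (limma, adjusted p = 0.0373), and *Me1*, the malic enzyme that supplies NADPH, fell by 0.16 (adjusted p = 0.0186). *Fasn*, the fatty acid synthase, had a slope of −0.14 (adjusted p = 0.0511), and *Elovl6*, an elongase, one of 0.15 (adjusted p = 0.0836), though *Elovl6* was higher by 0.98 in Dox arrays than in untreated ones (adjusted p = 0.0434). *Me1* read 10.17 with Dox and 9.07 without in 2i+LIF, and 6.93 at Dox 6 d and 8.38 on the untreated array in LIF+serum (difference between media 0.35 per day, adjusted p = 0.114). Of 8 other genes that use farnesyl diphosphate, 0 rose and 0 fell (limma, 1 with an unadjusted p under 0.05), and the steepest slope was that of *Ggps1*, geranylgeranyl diphosphate synthase (0.10, adjusted p = 0.0789).

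The 5 further genes whose values over the 10 arrays ran most like the mean profile of the 8 members were *Nqo1* (Pearson r = 0.923), *Mest* (0.901), *Gbx2* (0.877), *Cenpi* (0.868) and *Adgrl2* (0.867), out of 6695 genes with a mean of at least 6 and a range of at least 1 on the log2 scale. The arrays share their sets and media, so these correlations are a description only. In that mean profile the array at 1 d stood highest, 0.44 above the average of all arrays on the log2 scale, and the untreated array in 2i+LIF stood lowest, at −0.47.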

How the data were processed

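The deposited values are log2 values that the authors made by RMA, after subtracting background. RMA and affy are the tools in the submitters' processing notes, with versions not given in the sources used here. RMA compresses weak signals, so the folds of faint probe sets may be too small. Of 45101 probe sets, 64 controls were left out. The platform annotation paired 34945 with 1 symbol, 932 with several and did not list 9160. A gene was read from its probe set with the highest mean over the 10 arrays.

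Slopes and differences were fitted in R 4.3.3 by lmFit and eBayes of limma 3.58.1 on all probe sets, with Benjamini-Hochberg adjustment and a threshold of 0.05. Degrees of freedom in the trend fit were 5 residual and 4.81 prior. A fold is 2 raised to the log2 difference between a Dox array and the untreated array of its set, and counts were made at 2-fold. The rest was done in pandas 2.3.3, numpy 2.4.6 and matplotlib 3.10.9 under Python 3.11.15. The fits were also run on simulated data, with planted changes larger than any fitted for a member over the whole course. Those runs cannot say whether changes of the members' size would be found.

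The members, the lists and the tests were chosen with earlier results of these data known. The rule for named genes took all 8 members, up to 4 genes of each further list with the largest slopes, and the 5 genes most like the members' mean profile. Alternatives changed the array set term, time scale, filter, normalization, variance model, probe sets and untreated reference, and left out each array in turn. Some genes of the further lists are not reported here. The number of arrays limits the precision.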

Additional observations from a re-analysis of the deposited data

Results flagged for a closer look

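*Sqle* and the brightest *Lss* probe set were each lower on all 6 Dox arrays in LIF+serum than on the untreated array of their set. Both were higher on the Dox array in 2i+LIF. The other *Lss* probe sets did not share this pattern. In LIF+serum 1426913_at was 2.59-fold at 4 d and 1420014_at 1.08-fold at 1 d, and in 2i+LIF 1426913_at was 0.887-fold. The share of all genes with this pattern was not counted. The log2 difference in 2i+LIF was 0.601 for *Sqle* and 0.341 for *Lss* (probe set 1420013_s_at). This opposition of directions was not tested as such, and the difference of slopes between media did not pass in limma (adjusted p = 0.289 for *Sqle* and 0.468 for *Lss*).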

How the results depend on the processing

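With 1 array per Dox time and 2 or fewer per group, single arrays set many counts. Of member probe sets that fell in the trend (2), averaging the probe sets of a gene left 1 gene (*Cyp51*, mean slope −0.10, adjusted p = 0.0351; *Fdps* had 0.0523), array set 1 alone 0 (with 1 that rose, of *Lss*), array set 2 alone 1, and leaving out 1 array 0 to 2. For Dox against untreated, averaging gave 1 member that fell (*Fdps*, adjusted p = 0.0474), and leaving out 1 array 0 to 1. Over all probe sets, the trend counted 2150 that rose and 1879 that fell; averaging gave 1038 and 1045, array set 1 alone 991 and array set 2 alone 1159 that fell, and leaving out 1 array 0 to 2739 that rose and 0 to 2581 that fell, both 0 without the second untreated array. Dox against untreated counted 848 that rose and 502 that fell; it gave 0 and 0 with no array set term (limma; 1689 and 2504 at an unadjusted p under 0.05), 271 and 250 after averaging, 914 that fell among probe sets reaching 6, and 0 to 1350 that rose and 0 to 1146 that fell on leaving out 1 array (0 and 0 without 3 d and without 6 d, 336 and 13 without the second untreated array). The trended, robust variance gave 9 higher and 16 lower slopes in 2i+LIF, against 0 and 0.

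Slopes near 0 turned, none of them past the threshold. That of *Hmgcs1* (0.01) was −0.0138 with no array set term, −0.0380 after averaging, −0.0220 in set 2 alone and −0.0244 to 0.0945 on leaving out 1 array. That of *Idi1* (−0.02) was 0.0126 per unit of log2(day + 1), 0.0522 in set 1 alone and −0.0690 to 0.0158 on leaving out 1 array. That of *Insig1* (−0.01) was 0.0548 with no array set term, 0.0038 per unit of log2(day + 1), 0.0347 in set 1 alone and −0.0268 to 0.0261 on leaving out 1 array. Dox minus untreated ranged from −0.15 to 0.71 for *Hmgcs1*, −0.23 to 0.89 for *Idi1* and −0.13 to 0.38 for *Insig1*, negative only without the first untreated array, and was 0.0137 for *Lss* after averaging. The cause was not tested.

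The counts of this paragraph pool both directions. At 1.5-fold, 8 member probe sets at 1 d, 5 at 2 d, 2 at 3 d, 4 at 4 d, 4 at 8 d and 3 in 2i+LIF were counted, against 2, 2, 1, 1, 2 and 1 at 2-fold. The 8 at 1 d include the faint *Fdps* 1438150_at, which was lower (0.541-fold). Shares of all probe sets were counted only at 2-fold and against the untreated array of the set, so these counts have none beside them. With the mean of both untreated arrays 0 were counted at 1, 2, 3 and 4 d and 5 members were lower at 6 d. With the untreated array of the other set, 1 was counted at 1 d, 0 at 3 and 4 d and 4 at 8 d, and 5 members were lower at 6 d and 5 at 8 d. The 1 at 1 d was *Lss* 1426913_at, lower at 0.453-fold, and the 4 at 8 d include the same probe set, higher at 2.70-fold. The labels number no replicates shared between groups, so arrays were matched only by set, through the array set term and the untreated array of each set.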
